A study of Danio rerio with 246 samples.

Results

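The genes described here are 7 lysosomal cathepsins of the zebrafish: ctsd (ENSDARG00000057698), ctsba (ENSDARG00000055120), ctsz (ENSDARG00000043081), ctsh (ENSDARG00000041108), ctsc (ENSDARG00000101334), ctsk (ENSDARG00000040251) and ctsla (ENSDARG00000007836). They were picked by gene symbol from the 21876 genes of a single-cell count table. A row was found for all 7, with 6 matched by symbol and ctsba through the older symbol ctsb. Cathepsins are proteases that are made as inactive precursors, carried to the lysosome and switched on by its acid. Macrophages are known for high levels of them, since they digest engulfed material and cut antigens into peptides for MHC class II. ctsd is an aspartic protease, and the other 6 are cysteine proteases of the papain family, which cystatins inhibit.

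Each of the 246 samples was 1 cell of zebrafish kidney marrow, the blood-forming organ of this fish, sorted by fluorescence into plates and amplified by a modified Smart-seq2 method, which reads whole transcripts without molecular identifiers. The labels name 6 reporter lines: cd41_GFPlow (43 cells, plate 3), mpx_EGFP (47 cells, plate 4), Runx123_GFP (39 cells, plate 1), rag2_GFP (48 cells, plate 2), lck_GFP (38 cells, plate 2) and lck_GFP_rag1 (31 cells, plate 5). They give no animal, age, number of fish or promoter behind a reporter, and they do not say what the suffix rag1 stands for. Line and plate are therefore the same division except on plate 2, each line counted as 1 sample, and differences between lines have no replicate check and no p-value. As background, cd41 is another name of the thrombocyte integrin gene itga2b, mpx encodes the myeloperoxidase of neutrophils, rag2 a recombinase of developing lymphocytes and lck a kinase of T and NK cells, while low cd41 reporter signal and Runx1 reporters are known to mark blood stem and progenitor cells in zebrafish.

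Levels are in CPM, the reads of a gene per 1e+06 reads counted, taken from the counts summed over the cells of a line. Summed counts were 23028484 to 47836984 per line, and single cells held 47630 to 2969770 reads. A cell was said to have a gene at 10 CPM or more. A cell was said to carry a marker list when 3 or more of its genes reached that level. The 95% intervals (exact Poisson for levels, exact Clopper-Pearson for shares of cells) cover counting error only. Where 0 cells of a line had a gene, the limit given is 3 divided by the number of cells, which is lower than the upper end of the exact interval.

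The markers of mpx_EGFP, rag2_GFP and lck_GFP cells went with the names of the lines. The neutrophil list was carried by 47 of 47 mpx_EGFP cells, the B cell list by 43 of 48 rag2_GFP cells and the T cell list by 32 of 38 lck_GFP cells. The lck_GFP_rag1 line was mixed, with the NK and cytotoxic list in 21 of 31 cells and the T cell list in 0. In Runx123_GFP, 25 of 39 cells carried the thrombocyte list and 14 the erythroid list, with 10 cells carrying both. The cd41_GFPlow cells went against a reading of their label as thrombocytes. Only 1 of 43 carried the thrombocyte list, while 26 carried the monocyte and macrophage list, 8 the neutrophil list and 5 the erythroid list. The summed level of the macrophage list was 3889 CPM in cd41_GFPlow, 519.8 in mpx_EGFP, 625 in Runx123_GFP, 1411 in rag2_GFP, 109 in lck_GFP and 1611 in lck_GFP_rag1. Of its 21 genes, 0 were without a read in cd41_GFPlow, 8 in mpx_EGFP, 14 in Runx123_GFP, 14 in rag2_GFP, 19 in lck_GFP and 2 in lck_GFP_rag1. In lck_GFP_rag1 only 3 of 31 cells carried this list, and the median cell had 0 of its genes. The median cell had 2804 detected genes in cd41_GFPlow, 1606 in mpx_EGFP, 2295 in Runx123_GFP, 782 in rag2_GFP, 925 in lck_GFP and 1065 in lck_GFP_rag1. The part of these differences between lines in the cathepsin levels was not tested.

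A single cell stood apart in each of 2 lines, and both bear on every level given below. The cd41_GFPlow cell 39 had the highest count of its line for all 7 cathepsins and held 42.2% of the line's cathepsin reads. It had 19 of the 21 monocyte and macrophage genes. The lck_GFP_rag1 cell 25 held 77.2% of the cathepsin reads of its line. It was the deepest cell of the series, had the same number of macrophage genes and 3 genes of the B cell list, and had 0 genes of the T cell and of the NK lists. Levels and calls of the 7 cathepsins that rest on these cells are given with and without them. Values of other genes, of marker lists and of correlations include both cells unless stated.

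The cathepsins were highest in cd41_GFPlow, and at least 1 of them was present in most cells of cd41_GFPlow, mpx_EGFP and Runx123_GFP but in a minority of cells of the lymphoid lines. Their summed level was 2057 CPM in cd41_GFPlow, 626 in mpx_EGFP, 678 in Runx123_GFP, 274 in rag2_GFP, 188 in lck_GFP and 740.0 in lck_GFP_rag1. Without the cell with the most cathepsin reads in each line the sums were 1220, 567, 580.4, 187, 108 and 182 CPM in the same order, so that cd41_GFPlow stayed highest while lck_GFP_rag1 came to lie beside the other lymphoid lines. A cathepsin was present in 38 of 43 cd41_GFPlow cells, 37 of 47 mpx_EGFP cells and 26 of 39 Runx123_GFP cells. The same held for 9 cells each of rag2_GFP (of 48), lck_GFP (of 38) and lck_GFP_rag1 (of 31). In every line the lowest cell was at 0 for every one of the genes, and the median cell was above 0 only in cd41_GFPlow, for ctsd (19.1 CPM) and ctsba (119 CPM).

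**Figure D1:**
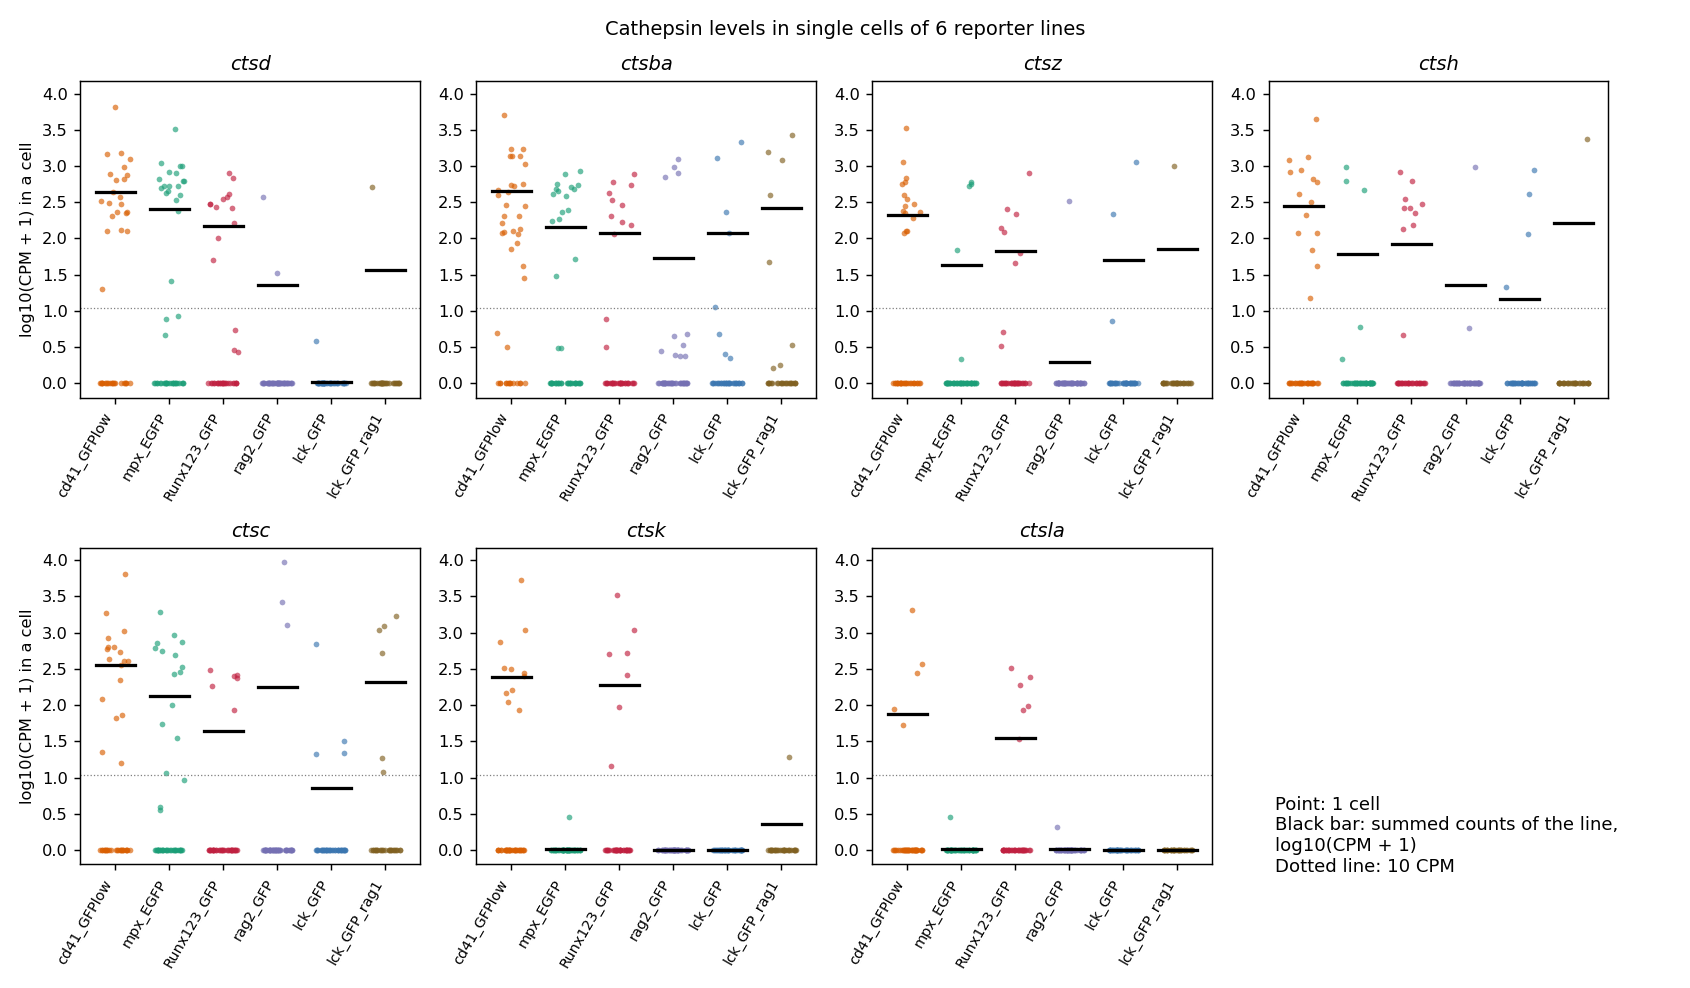
Level of each cathepsin in each of the 246 cells, as log10(CPM + 1), with 1 panel per gene and the reporter lines side by side. Black bars mark the level of the summed counts, and ctsk and ctsla have points above the dotted line of 10 CPM in cd41_GFPlow and Runx123_GFP, plus 1 lck_GFP_rag1 cell for ctsk.

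To count differences, the level of a line was set against the mean of the other 5 lines, and a gene was called higher or lower at 4-fold or more, that is an absolute log2 ratio of 2 on the log2(CPM + 1) scale. In cd41_GFPlow, 5 of the 7 cathepsins were called higher (ctsd, ctsz, ctsh, ctsk and ctsla) and 0 lower, where 6.43% of the 12660 genes measured were higher and 20.9% lower. The median log2 ratio of the 7 was 2.18, and that of all genes measured was -0.33. Without cell 39, with the other lines complete, 0 of the 7 were called higher, and their log2 ratios lay between 0.80 (ctsc) and 1.58 (ctsd), all above 0. Without the top cell of each gene in every line, which leaves out cell 39 and the highest cell of each other line, 6 were called higher, all but ctsc. Dividing by DESeq2 size factors left 2 calls (ctsk and ctsla). Without lck_GFP_rag1 cell 25 the count was 6, with ctsba added.

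In the 3 lymphoid lines the only calls were lower, and there the background was large. The median log2 ratio of the 7 was -2.97 in rag2_GFP, -4.49 in lck_GFP and -0.08 in lck_GFP_rag1. The medians of all genes measured were -0.87, -1.82 and -1.98. In lck_GFP_rag1, cell 25 included, the median of the 7 was thus above that of all genes. In rag2_GFP, 6 of 7 were lower, all but ctsc, with 0 higher, against 39.2% of all genes lower and 15.9% higher. The count was 4 without lck_GFP_rag1 cell 25, and 3 when cells under 1000 detected genes were left out. In lck_GFP, 5 of 7 were lower (ctsd, ctsh, ctsc, ctsk and ctsla), against 47.2% of all genes lower and 8.64% higher. In lck_GFP_rag1, 3 of 7 were lower (ctsd, ctsk and ctsla), a share below the 49.7% of all genes, of which 8.59% were higher. Without cell 25 the count in that line was 5 lower, with ctsz and ctsh added, and without cd41_GFPlow cell 39 it was 2. In mpx_EGFP, 2 of 7 were lower (ctsk and ctsla), near the background of 39.2% lower and 6.03% higher. In Runx123_GFP, 0 of 7 were called in either direction, where 11.3% of all genes were higher and 25.3% lower. That count rests on the limit of 2, since ctsc lay just inside it at a log2 ratio of -1.998 and ctsk at 1.92. Without cd41_GFPlow cell 39, ctsk and ctsla were higher there, and with DESeq2 or TMM factors ctsc was lower.

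**Figure D2:**
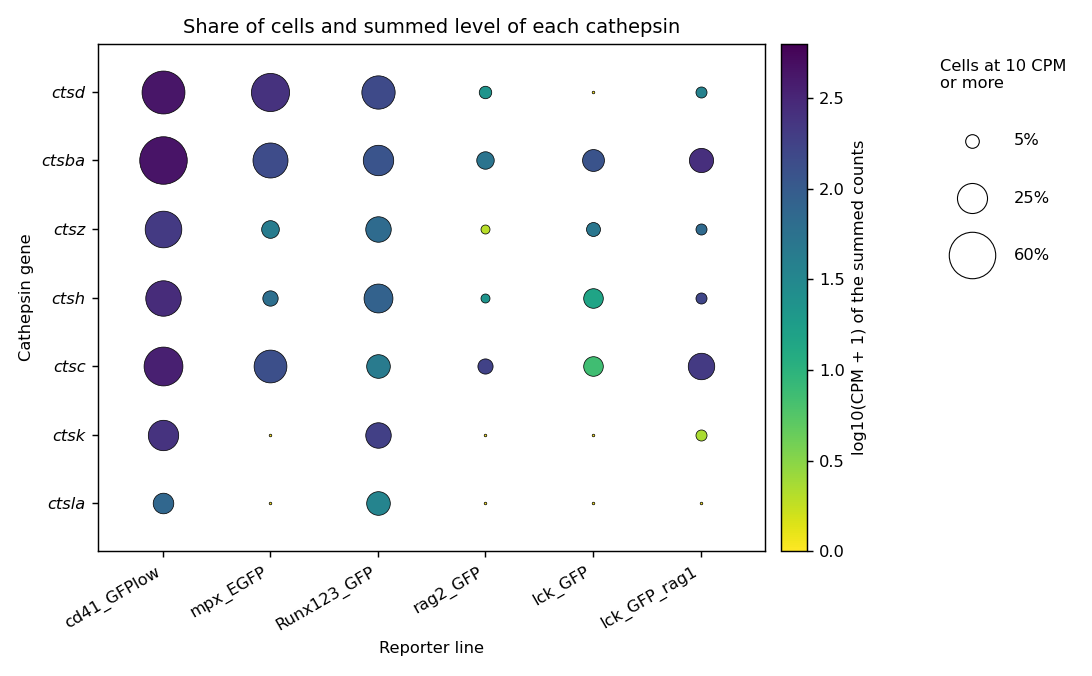
Each cathepsin in each reporter line, with the area of a circle set by the percent of cells at 10 CPM or more and its colour by log10(CPM + 1) of the summed counts, where the smallest dots mark 0 cells. The cd41_GFPlow column holds the largest circle for 6 of the genes, from ctsba (62.8% of cells) down to ctsk (25.6%), while ctsla has its largest share in Runx123_GFP (15.4% of cells, against 11.6% in cd41_GFPlow).

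ctsd, the main aspartic protease of the lysosome, was read mostly in cd41_GFPlow, mpx_EGFP and Runx123_GFP. Its level was 439.7 CPM in cd41_GFPlow (434 to 446), 249.9 in mpx_EGFP (244 to 256), 147 in Runx123_GFP, 21.5 in rag2_GFP, 0.043 in lck_GFP and 35.1 in lck_GFP_rag1. It was present in 22 of 43 cd41_GFPlow cells (51.2%, 35.5 to 66.7%), in 19 of 47 mpx_EGFP cells (40.4%, 26.4 to 55.7%) and in 12 of 39 Runx123_GFP cells (30.8%, 17.02 to 47.6%). The intervals of these 3 shares overlap, but they cover counting error only and do not say whether the lines differ. The lymphoid lines had 2 rag2_GFP cells, 0 lck_GFP cells and 1 lck_GFP_rag1 cell. The whole lck_GFP line held 1 ctsd read, and 0 of its 38 cells allows a share of up to 7.89%. The single lck_GFP_rag1 cell was cell 25, and 1 rag2_GFP cell, which carried 0 genes of the B cell list, held 99.6% of the ctsd reads of its line. Without cell 39 the cd41_GFPlow level was 274 CPM, still the highest.

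ctsba, a cysteine endopeptidase that can also cut dipeptides from the carboxyl end, was the cathepsin found in the most cells. Its level was 451 CPM in cd41_GFPlow (445 to 457), 142 in mpx_EGFP, 117 in Runx123_GFP, 52.5 in rag2_GFP, 119 in lck_GFP and 263 in lck_GFP_rag1. It was present in 27 of 43 cd41_GFPlow cells (62.8%, 46.7 to 77.0%), 16 of 47 mpx_EGFP cells (34.04%), 10 of 39 Runx123_GFP cells (25.6%), 4 of 48 rag2_GFP cells, 5 of 38 lck_GFP cells and 5 of 31 lck_GFP_rag1 cells. It was rare but not low in lymphoid cells. The 4 rag2_GFP cells that had it all carried the B cell list, and their levels ran up to 1228 CPM. The highest lck_GFP cell had 2157 CPM and 5 genes of the T cell list. In lck_GFP_rag1 it was scarce in the cells with the NK and cytotoxic list, at 1.58 CPM over 21 cells. The line's level was 82.7 CPM without cell 25, and the cd41_GFPlow level was 328 CPM without cell 39.

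ctsz, a carboxypeptidase, and ctsh, an aminopeptidase, trim peptides from opposite ends. The level of ctsz was 209.6 CPM in cd41_GFPlow, 42.03 in mpx_EGFP, 66.5 in Runx123_GFP, 0.98 in rag2_GFP, 48.9 in lck_GFP and 69.5 in lck_GFP_rag1. It was present in 16 of 43 cd41_GFPlow cells and 7 of 39 Runx123_GFP cells, and in 4 mpx_EGFP cells, 1 rag2_GFP cell, 2 lck_GFP cells and 1 lck_GFP_rag1 cell. The level of ctsh was 281 CPM in cd41_GFPlow, 59.7 in mpx_EGFP, 83.3 in Runx123_GFP, 21.4 in rag2_GFP, 13.6 in lck_GFP and 162 in lck_GFP_rag1. Its cells numbered 15 in cd41_GFPlow, 3 in mpx_EGFP, 9 in Runx123_GFP, 1 in rag2_GFP, 4 in lck_GFP and 1 in lck_GFP_rag1. Outside cd41_GFPlow both were thus genes of few cells, and in lck_GFP_rag1 every read of both came from cell 25. Without cell 39 the cd41_GFPlow levels were 124 CPM for ctsz and 170.4 CPM for ctsh.

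ctsc, also called dipeptidyl peptidase, is known in mammals for cutting the granule serine proteases of neutrophils and cytotoxic lymphocytes into their active form. It was high in lines of more than 1 lineage. Its level was 359.8 CPM in cd41_GFPlow (354 to 365), 132 in mpx_EGFP, 43.6 in Runx123_GFP, 178 in rag2_GFP, 6.17 in lck_GFP and 209.5 in lck_GFP_rag1. Cells that had it numbered 18 of 43 in cd41_GFPlow, 14 of 47 in mpx_EGFP, 6 of 39 in Runx123_GFP, 3 of 48 in rag2_GFP, 4 of 38 in lck_GFP and 6 of 31 in lck_GFP_rag1. The high rag2_GFP level came from 3 cells, all with the B cell list, and 1 of them held 9425 CPM, the highest cathepsin level of any cell of the series. Without cell 39 the cd41_GFPlow level was 198 CPM, and without cell 25 the lck_GFP_rag1 level was 98.9 CPM. cd41_GFPlow was thus below the full lck_GFP_rag1 line without cell 39, and above it when both cells were left out.

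The granzymes, the serine proteases that ctsc is known to activate in killer cells, were set beside it cell by cell. Of 5 granzyme genes measured, 5 were called higher in lck_GFP_rag1, where 8.59% of all genes were, among them gzm3.3 at 278 CPM and gzmk at 204 CPM. That count was largely set by the filter, since the granzymes reached 10 CPM mostly through this line. In cd41_GFPlow, mpx_EGFP and Runx123_GFP 0 of them did so, and 1 did in rag2_GFP or lck_GFP. At least 1 granzyme was present in 13 of 31 lck_GFP_rag1 cells and ctsc in 6, and 3 cells had both. Whether this overlap exceeds that of unrelated genes was not tested. The other 10 granzyme cells were below 10 CPM for ctsc. In lck_GFP, 2 cells had a granzyme and both had ctsc. The whole lck_GFP line held only 142 ctsc reads, 76.8% of them in 1 cell, and 1 of its 4 ctsc cells reached 50 CPM. In cd41_GFPlow, 18 cells had ctsc and 0 a granzyme. Among the 21 lck_GFP_rag1 cells with the NK and cytotoxic list, ctsc was the only one of the 7 cathepsins above 10 CPM in summed level, with 93.0 CPM from 3 cells.

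ctsk, the collagen-cutting protease for which mammalian osteoclasts are known, and ctsla, a cysteine endopeptidase of the cathepsin L type, were the most restricted. The level of ctsk was 242 CPM in cd41_GFPlow (238 to 247), 0.042 in mpx_EGFP, 187 in Runx123_GFP (182 to 191), 0 in rag2_GFP, 0 in lck_GFP and 1.26 in lck_GFP_rag1. The level of ctsla was 73.6 CPM in cd41_GFPlow, 0.042 in mpx_EGFP, 33.6 in Runx123_GFP, 0.032 in rag2_GFP, 0 in lck_GFP and 0 in lck_GFP_rag1. All 47 neutrophil reporter cells together held 1 read of each gene. ctsk had 11 of 43 cd41_GFPlow cells and 7 of 39 Runx123_GFP cells, plus lck_GFP_rag1 cell 25 at 18.2 CPM. ctsla had 5 cd41_GFPlow cells and 6 Runx123_GFP cells and no other. The absence in a line has a limit set by its number of cells: 0 of 47 mpx_EGFP cells allows a share of up to 6.38%, 0 of 48 rag2_GFP cells up to 6.25% and 0 of 38 lck_GFP cells up to 7.89%. For ctsla, 0 of 31 lck_GFP_rag1 cells allows up to 9.68%. Without cell 39 the cd41_GFPlow levels were 105 CPM for ctsk and 20.5 CPM for ctsla, and Runx123_GFP was then the highest line for both.

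In Runx123_GFP the cells with ctsk and the cells with ctsla were different cells. All 6 ctsla cells carried the erythroid list, with 7 to 10 of its 10 genes, which encode globins, haem enzymes and red cell proteins. Their levels were 33.05 to 328 CPM, with a median of 144 CPM. None of the 25 cells without that list had ctsla. None of the 14 erythroid-list cells had ctsk, with 0 reads in all of them. The 7 ctsk cells were 5 of the 15 cells that carried the thrombocyte list without the erythroid or macrophage list, and 2 of 2 cells with the macrophage list. The lowest of the 7, a thrombocyte-list cell of 149037 reads, had 13.4 CPM, and 6 were at 50 CPM or more. The erythroid list does not exclude thrombocyte genes, since 10 of the 14 erythroid-list cells carried the thrombocyte list too. Summed over those 15 cells ctsk was 430.5 CPM, and 1 of them at 3280 CPM held 44.5% of the ctsk reads of the line. No cell had both genes, where shares of 7 and 6 in 39 multiply to 1.08 cells, so the count of 0 alone says little. Median detected genes were 2734 in the erythroid-list cells and 1239 in those 15 thrombocyte-list cells, and its part in the pattern was not tested.

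In cd41_GFPlow both genes were present in macrophage-list cells, and ctsla in erythroid-list cells too. All 11 ctsk cells carried the macrophage list, with 3 to 19 of its genes, and 0 of the 17 other cells had ctsk. Of the 5 ctsla cells, 3 carried the macrophage list and 2 the erythroid list. Both genes were present in 2 cells, cell 39 among them, where their shares multiply to 1.28 cells, so this count says little too. Erythroid-list cells thus had ctsla in 6 of 14 Runx123_GFP cells and 2 of 5 cd41_GFPlow cells, and ctsk in 0 of either.

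**Figure D3:**
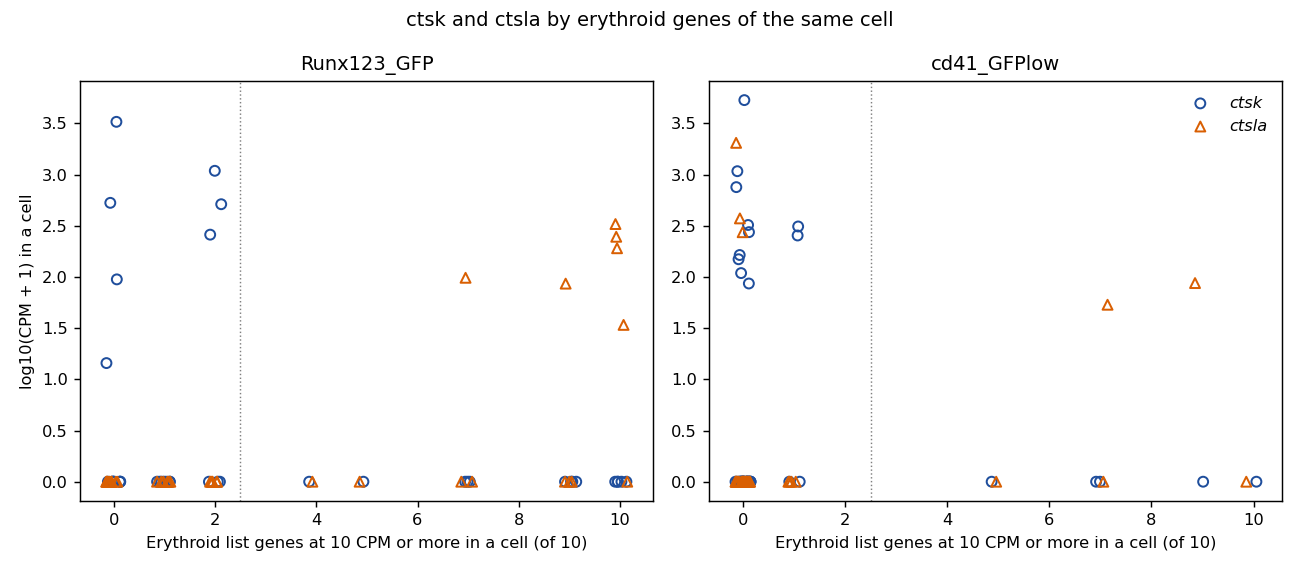
Level of ctsk (circles) and ctsla (triangles) in each Runx123_GFP and cd41_GFPlow cell, as log10(CPM + 1), by the number of erythroid list genes in that cell. To the right of the dotted line, at 3 or more erythroid genes, ctsla is present in 6 of 14 and 2 of 5 cells and ctsk in none.

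The other 5 cathepsins were not divided as sharply between these Runx123_GFP cells, apart from ctsba. In the 14 erythroid-list cells ctsd was present in 8 (188 CPM), ctsba in 6 (129 CPM), ctsz in 4 and ctsh in 3. In the 15 cells with the thrombocyte list alone, ctsba was present in 0 (0.15 CPM), ctsd in 2 (153 CPM) and ctsh in 3 (133 CPM). ctsc was near absent from erythroid-list cells, with 8.29 CPM from 1 of 14 cells in Runx123_GFP and 0 CPM in 5 cells of cd41_GFPlow. It was also present in few other Runx123_GFP cells. Those were 2 of the 15 cells with the thrombocyte list alone (42.9 CPM), 1 of 8 with none of these lists (56.4 CPM) and 2 of 2 with the macrophage list.

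Within cd41_GFPlow the summed levels of the cathepsins went with the macrophage list. In the 26 cells that carried it ctsd was 666 CPM, ctsba 697 CPM and ctsc 543 CPM, against 66.6, 47.4 and 58.5 CPM in the 17 that did not. ctsh was 449 CPM in the macrophage-list cells against 5.31 CPM in the others, ctsk 389.6 against 0 CPM, and ctsla 112 against 10.4 CPM. The ratio was smallest for ctsz, with 285 against 85.7 CPM and 10 of 26 against 6 of 17 cells. All 7 were higher in summed level in the macrophage-list cells, and without cell 39 those 25 cells still had 406 CPM of ctsd, 506 of ctsba, 148 of ctsz, 275 of ctsh, 287 of ctsc, 171 of ctsk and 26.98 of ctsla. The share of cells with ctsla was about the same, with 3 of 26 against 2 of 17 cells, and 2 of 25 without cell 39. Cell 39 held 72.8% of the ctsla reads of the line. The list is a range and not a cell type, since 9 cells sat at exactly 3 genes and 3 at 2. Median detected genes were 2866 with the list and 2513 without it.

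The number of cathepsins in a cell went with the number of macrophage genes. Across the 43 cd41_GFPlow cells, Pearson's r between the number of the 7 present and the number of macrophage genes was 0.81 (0.78 over 42 cells without cell 39). It was 0.22 with log2 reads and 0.39 with detected genes. These cells share a line, a plate and a sort, so the values describe them and carry no test. The macrophage list is itself not private to macrophages: cd68 was present in 30 of 47 mpx_EGFP cells, and mpeg1 and irf8 in 17 and 12 of 48 rag2_GFP cells. In rag2_GFP, 4 cells carried 3 or more list genes and had 0 of the 7 cathepsins.

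**Figure D4:**
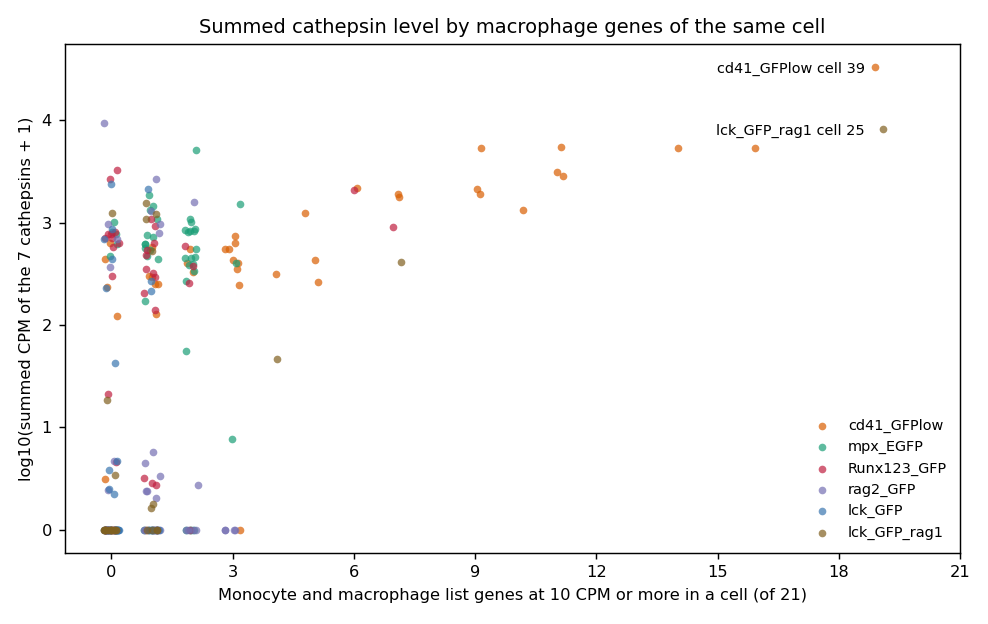
Summed level of the 7 cathepsins in each cell, as log10(summed CPM + 1), by the number of the 21 monocyte and macrophage list genes at 10 CPM or more, coloured by line. Among cd41_GFPlow cells, those with more macrophage genes tend to lie higher, with cell 39 at the top, and lck_GFP_rag1 cell 25 lies far from the rest of its line.

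Most cells with cathepsins in the mpx_EGFP line had only 1 of them, whereas cd41_GFPlow cells combined several. At least 3 of the 7 were present in 21 of 43 cd41_GFPlow cells, 3 of 47 mpx_EGFP cells, 10 of 39 Runx123_GFP cells, 1 rag2_GFP cell, 2 lck_GFP cells and 1 lck_GFP_rag1 cell. With a limit of 50 CPM these counts were 17, 3, 9, 0, 0 and 1 in the same order. All 7 were present in 2 cells, both cd41_GFPlow. In mpx_EGFP, 22 cells had exactly 1 and 10 had none. At a thinned depth of 200000 reads per cell, ctsd was present in 22 of 43 cd41_GFPlow cells and 21 of 47 mpx_EGFP cells. At that depth ctsba was present in 27 cd41_GFPlow cells and 16 mpx_EGFP cells, as without thinning.

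**Figure D5:**
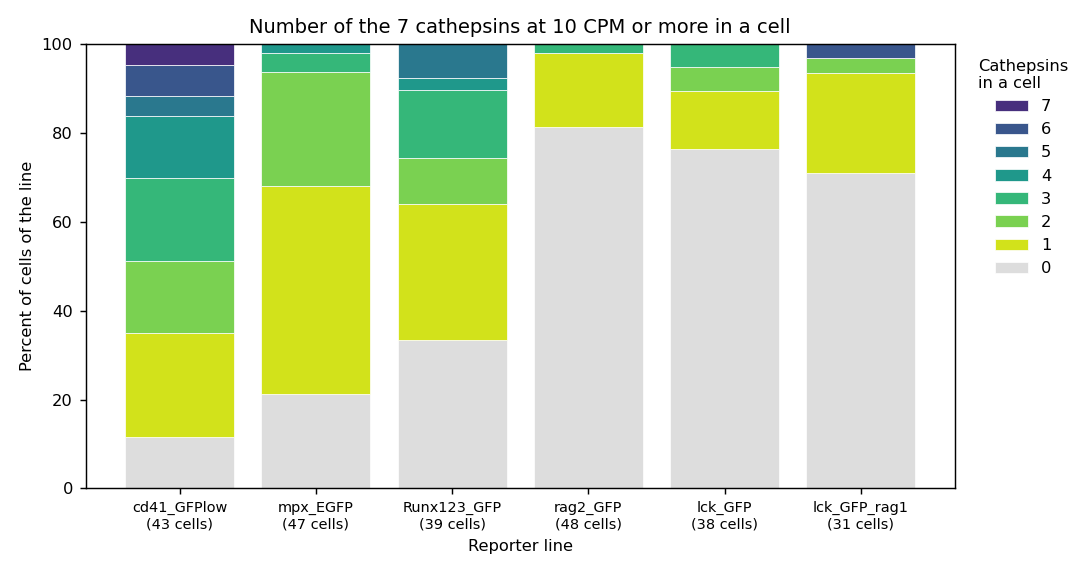
Percent of the cells of each reporter line that had 0 to 7 of the cathepsins at 10 CPM or more. The share with at least 3 is 48.8% in cd41_GFPlow, 6.38% in mpx_EGFP and 25.6% in Runx123_GFP, and most rag2_GFP, lck_GFP and lck_GFP_rag1 cells have none.

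Pairs of the genes varied together in cd41_GFPlow cells to different degrees. Pearson's r of log2(CPM + 1) over the 43 cells was highest for ctsba with ctsk, at 0.60, and lowest for ctsz with ctsc, at 0.14. All 11 ctsk cells also had ctsba. In mpx_EGFP, ctsd and ctsba were both present in 7 cells, where their shares multiply to 6.47 cells, and r over the 47 cells was -0.04. In cd41_GFPlow they were both present in 17 cells, where the shares multiply to 13.8, with r = 0.46.

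Set directly against the neutrophil reporter line, cd41_GFPlow had 4 of 7 cathepsins higher (ctsz, ctsh, ctsk and ctsla) and 0 lower, where 27.6% of 9138 genes were higher and 9.74% lower. ctsz was 4.99-fold higher (4.67 to 5.33) and ctsh 4.71-fold higher (4.46 to 4.98), while ctsd was 1.76-fold higher (1.71 to 1.81), ctsba 3.17-fold and ctsc 2.73-fold. ctsk and ctsla stood against 1 read each in mpx_EGFP, both in the same cell, which gives ratios of 5796 (1040.0 to 228937) and 1760 (316 to 69520.0). The intervals cover counting error only. This comparison moved with the scaling: with DESeq2 size factors 22.1% of all genes were higher and 14.4% lower, the median of all genes moved by -0.59 log2, and 2 calls were left (ctsk and ctsla). The same 2 were left without cell 39, where the fold was 2.95 for ctsz, 2.86 for ctsh, 1.097 for ctsd, 2.30 for ctsba and 1.503 for ctsc. Without the top cell of each gene in both lines all 4 were called.

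Against Runx123_GFP, cd41_GFPlow had 1 of 7 higher, ctsc at 8.26-fold (7.84 to 8.70), and 0 lower, where 14.4% of 9813 genes were higher and 14.8% lower. The other folds ran from 1.30 (ctsk) to 3.86 (ctsba). Without cell 39 the fold of ctsc was 4.55, still called, and ctsk at 0.562 and ctsla at 0.612 were lower in cd41_GFPlow, neither by 4-fold.

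Between the lck lines, lck_GFP_rag1 had 3 of 5 measured cathepsins higher than lck_GFP (ctsd, ctsh and ctsc) and 0 lower, where 30% of 7812 genes were higher and 31% lower. ctsd stood against 1 read in lck_GFP, a ratio of 809 (145 to 31975), and ctsh was 11.9-fold higher (10.6 to 13.4). ctsc was 33.98-fold higher (28.8 to 40.4). Without cell 25 ctsc was 16.03-fold higher, the only one of the 3 still called, and ctsz and ctsh were then lower, since neither had a read left in lck_GFP_rag1. On the shared plate 2, rag2_GFP had 2 of 5 measured cathepsins higher than lck_GFP (ctsd and ctsc) and 1 lower (ctsz), where 37.6% of 8829 genes were higher and 23.5% lower. ctsc was 28.8-fold higher there (24.4 to 34.2), with 178 CPM in rag2_GFP from 3 cells and 6.17 CPM in lck_GFP from 4 cells. For ctsd, 1 read in lck_GFP gives a ratio of 494 (88.4 to 19540.1), but 1 rag2_GFP cell held 99.6% of the ctsd reads of its line. Without that cell the rag2_GFP level of ctsd was 0.10 CPM, from 3 reads, and ctsd was no longer called. The level of ctsz was 0.98 CPM in rag2_GFP and 48.9 CPM in lck_GFP, from 1 and 2 cells.

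The order of the lines was set against 10 other ways of computing the levels, since there are no replicate samples. cd41_GFPlow was first for ctsd, ctsba, ctsz and ctsh in all 10. For ctsc it lost the first place in 1 of 10, and for ctsk and ctsla in 2 of 10, each time on leaving out cell 39 or the top cell of each line. For ctsd, mpx_EGFP stayed above Runx123_GFP and Runx123_GFP above lck_GFP_rag1 in all 10. The places of lck_GFP_rag1 were the least settled: its second place turned in 3 of 10 for ctsba and ctsc and in 5 of 10 for ctsz and ctsh. For ctsba, lck_GFP (119 CPM) and Runx123_GFP (117 CPM) changed places in 2 of 10.

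Other cathepsins of the table were read in several lines. Of 8 measured, 1 was higher and 2 lower in cd41_GFPlow (median log2 ratio 0.70), where 6.43% of all genes were higher and 20.9% lower. In mpx_EGFP 2 were higher and 3 lower, against 6.03% and 39.2% of all genes, so that the share lower was near the background. ctss1, a cathepsin S gene, was highest in neutrophil reporter cells, with 853 CPM in mpx_EGFP from 41 of 47 cells, against 145 in cd41_GFPlow, 133 in lck_GFP_rag1 and 0 in the other 3 lines. In lck_GFP_rag1, 1 cell held 96.6% of the ctss1 reads. ctsl.1, of the cathepsin L type like ctsla, was present in 4 mpx_EGFP cells (43.4 CPM) and had 0 reads elsewhere. lgmn, which encodes the asparagine-cutting protease legumain that processes cathepsin precursors, had 413 CPM in cd41_GFPlow, 2.05 in mpx_EGFP, 73.2 in Runx123_GFP, 150.1 in rag2_GFP, 2.95 in lck_GFP and 325 in lck_GFP_rag1, and 1 cell held 75.2% of its cd41_GFPlow reads. ctsa, a serine carboxypeptidase, had 119 CPM in cd41_GFPlow, 176 in mpx_EGFP, 27.1 in Runx123_GFP, 124 in lck_GFP_rag1 and 0 in both lines of plate 2. ctso reached 74.6 CPM in lck_GFP_rag1 from 1 cell, and ctsf 66.0 CPM in rag2_GFP from 3 cells.

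ctsk lies next to the cathepsin S genes ctss2.1 and ctss2.2 in the RefSeq annotation GRCz12tu, and the neighbours differed in where they were read. ctss2.1 had 230.4 CPM in cd41_GFPlow, 239 in mpx_EGFP, 44.7 in Runx123_GFP, 95.6 in rag2_GFP, 234 in lck_GFP and 176 in lck_GFP_rag1. ctss2.2 had 354 CPM in cd41_GFPlow, 59.8 in mpx_EGFP, 14.3 in Runx123_GFP, 163.9 in rag2_GFP, 6.04 in lck_GFP and 73.1 in lck_GFP_rag1, where 1 cell held 96.4% of its reads. In lck_GFP, where ctsk had 0 reads in 38 cells, ctss2.1 was present in 11.

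The cystatins, inhibitors of the cysteine cathepsins, had 1 of 4 higher and 1 of 4 lower in cd41_GFPlow. Of all genes measured, 6.43% were higher and 20.9% lower there, so the share of cystatins lower was near the background. cst3, the secreted cystatin C gene, had 2.38 CPM in cd41_GFPlow, 415 in mpx_EGFP (28 of 47 cells), 15.9 in Runx123_GFP, 20.5 in rag2_GFP, 168 in lck_GFP and 1.64 in lck_GFP_rag1. cst3 was thus read mostly in neutrophil and T cell reporter cells. cst14a.2 was present in 32 of 43 cd41_GFPlow cells and 23 of 47 mpx_EGFP cells at similar levels, 72.6 and 71.6 CPM.

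Other lysosomal genes were counted in cd41_GFPlow in the same way, with no test against the cathepsins. Of 35 measured lysosomal hydrolases 4 were higher and 4 lower (median log2 ratio 0.95), and of 16 lysosomal membrane proteins 3 were higher and 1 lower (median 0.36). tpp1, a tripeptidyl peptidase, had 269.9 CPM in cd41_GFPlow and 3.47 in mpx_EGFP, and psap, the precursor of the saposins, 1209 in cd41_GFPlow and 394 in mpx_EGFP. hexb, a hexosaminidase subunit, was close between these lines, with 332 CPM in cd41_GFPlow and 308 in mpx_EGFP. Other genes of these lists were highest elsewhere. acp2 had 73.0 CPM in cd41_GFPlow and 237 in mpx_EGFP, and cd63 had 1169 in cd41_GFPlow and 2667 in mpx_EGFP. laptm5 was highest in lck_GFP_rag1, with 1573 CPM against 523 in cd41_GFPlow. Of 14 subunits and partners of the V-ATPase, the pump that acidifies lysosomes, 0 were higher and 1 lower (median 0.21), and of 10 genes of lysosomal sorting 0 were higher and 1 lower (median -0.13). Of the V-ATPase genes, atp6ap1b and atp6ap2 were highest in mpx_EGFP, and atp6v1g1 and atp6v1h in cd41_GFPlow. m6pr, a receptor that carries enzymes to the lysosome, had 252 CPM in cd41_GFPlow (30 of 43 cells) and 52.3 to 119 CPM in the other lines. The sorting genes gga1 and sorl1 were highest in lck_GFP, with 345 and 209.6 CPM, against 48.9 and 1.88 CPM in cd41_GFPlow. These lists were set beside the same all-gene share of 6.43% higher and 20.9% lower.

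The MiT/TFE transcription factors include Tfeb, known in mammals as an activator of lysosomal genes. The 3 measured had their highest levels in different lines, but cd41_GFPlow had the most cells with each of them. tfe3 was present in 14 cd41_GFPlow cells (49.96 CPM) and in 5 cells or fewer of each other line. Its highest level was 90.8 CPM in lck_GFP_rag1, from 3 cells, and 1 cell held 86.2% of those reads. tfec was present in 8 of 43 cd41_GFPlow cells (42.8 CPM), and the other lines together held 1 read, in mpx_EGFP. tfeb was highest in rag2_GFP, with 274 CPM from 13 of 48 cells, and its part in the cathepsin levels was not tested. It had 86.2 CPM in cd41_GFPlow (16 cells), 59.6 in mpx_EGFP, 25.98 in Runx123_GFP, 0.043 in lck_GFP and 43.7 in lck_GFP_rag1.

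The genes most like each cathepsin across all 246 cells were found by Pearson's r of log2(CPM + 1) among 4583 genes. The galectin gene lgals2a was first for ctsk (r = 0.63), ctsba (0.53) and ctsz (0.48). For ctsd the nearest were lrrc15 (0.54) and asah1, an acid ceramidase of the lysosome (0.54). tspan36 was nearest for ctsh (0.48) and ctsla (0.52), and ctsla also had the erythropoietin receptor gene epor among its 3 nearest (0.50). ctsc was the least tied to any gene, with xaf1 first at 0.42. Within the 43 cd41_GFPlow cells, among 3981 genes, ctsba was nearest to ctss2.2 (0.77), ctsd to the V-ATPase subunits atp6v1g1 (0.71) and atp6v1e1b (0.70), ctsh to csf3r (0.71) and ctsc to marcksl1b (0.71). The first-ranked genes in this line were anxa3b for ctsz (0.56), sowahd for ctsk (0.73) and setdb1 for ctsla (0.58). All these values are descriptions. Those over all 246 cells also hold the differences between lines and plates. Those within cd41_GFPlow are over cells of 1 line and 1 plate, which held 268422 to 1758073 reads each.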

How the data were processed

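The authors deposited counts of reads per Ensembl gene for each cell. The aligner STAR, the counter featureCounts, Picard and the build GRCz10 are listed, per the submitters' processing notes, without versions, order or how reads shared by similar genes were treated. Values of genes with near copies, such as the cathepsin S, cathepsin L and mfap4 genes, are uncertain for that reason. Of the 7 cathepsins, 6 matched a symbol of the names table and ctsba was taken to be the gene named CTSB there, since ctsb is a synonym of ctsba in RefSeq (GRCz12tu, used for names and neighbours only) and ctsbb has an ID of its own.

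All cells of a line had their counts added up, divided by the total and multiplied by 1e+06. All genes at 10 CPM in at least 1 line were measured, with a pseudocount of 1 CPM for ratios, and a call needed a log2 ratio of 2. The main values include all 246 cells. Cells are numbered within their line in accession order. Each cell was also thinned to 200000 reads with a fixed seed, which left 43 cd41_GFPlow, 47 mpx_EGFP, 36 Runx123_GFP, 41 rag2_GFP, 32 lck_GFP and 30 lck_GFP_rag1 cells. Reads amplified by PCR without molecular identifiers are not independent molecules. Doublets were not sought in these sorted wells.

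The members and lists were chosen with earlier results of these data known. Of 262 list entries, 179 matched a symbol, 7 a synonym and 7 a shortened symbol, and 69 matched none. The macrophage list covers 21 genes, several of them copies under the names mfap4 and mpeg1. Endothelial and stroma lists were carried by 0 cells and the kidney tubule and podocyte list by 1. Named beside the cathepsins were the 4 highest genes of each list, drawn on as needed, every other cathepsin measured, and the 3 genes most like each member. The scripts were tested on simulated data. A planned comparison of levels between members was not made, since no gene lengths were used. Alternatives used size factors of DESeq2 (1.42.0) and TMM factors of edgeR (4.0.16) in R (4.3.3). The rest used Python (3.11.15) with numpy (2.4.6), pandas (2.3.3), scipy (1.17.1) and matplotlib (3.10.9).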

Additional observations from a re-analysis of the deposited data

How the results depend on the processing

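The count of cathepsins higher in cd41_GFPlow (5) was 2 with DESeq2 size factors, 3 with a pseudocount of 10 CPM and 0 without cell 39. It was 6 without each gene's top cell in every line, which leaves out cell 39 too. Leaving out cd41_GFPlow cell 39 or lck_GFP_rag1 cell 25 was chosen after seeing the data. In mpx_EGFP the count lower (2) was 1 with the larger pseudocount. In Runx123_GFP the count higher (0) was 1 after thinning, 2 without each gene's top cell and 2 without cell 39, and the count lower (0) was 1 with the mean of the cells' CPM, 1 without the cell over 20% mitochondrial reads, 1 with DESeq2 and 1 with TMM factors. In rag2_GFP the count lower (6) was 3 among cells of at least 1000 genes. In lck_GFP_rag1 the count lower (3) was 5 without the cell with the most reads, 5 without each gene's top cell and 5 without cell 25.

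For cd41_GFPlow over mpx_EGFP the count higher (4) was 2 with DESeq2, 2 with TMM and 2 without cell 39. For cd41_GFPlow over Runx123_GFP the count higher (1) was 3 with the mean of the cells' CPM, 3 after thinning and 2 with TMM. For lck_GFP_rag1 over lck_GFP the count higher (3) was 1 and the count lower (0) was 2 without the cell with the most reads, 1 and 1 without each gene's top cell, and 1 and 2 without cell 25. The log2 ratio of ctsd in lck_GFP_rag1 over lck_GFP turned to -0.0654 without the deepest cell of every line and to -0.0613 without cell 25. The log2 ratio of ctsh in lck_GFP_rag1 over lck_GFP turned to -3.96 without the cell with the most reads, -3.87 without cell 25 and -2.95 without each gene's top cell. For rag2_GFP over lck_GFP the count higher (2) was 1 with the mean of the cells' CPM, without the cell with the most reads, without each gene's top cell and with the larger pseudocount. In each of these settings ctsd was lost and ctsc was left. After thinning the count stayed 2, with ctsh in place of ctsd. The cause of these changes was not tested, except that cell 25 held every ctsd and ctsh read of its line. DESeq2 factors moved the median of all genes by 0.43 log2 in mpx_EGFP and by -0.18 in cd41_GFPlow. Where a gene was present in 1 to 3 cells of a line, those cells set its level. No paired analysis was possible because each line is 1 sample and the results come from no test.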

Other observations

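The 5 erythroid-list cells of cd41_GFPlow had ctsd in 4 (150.0 CPM), and the 14 of Runx123_GFP had it in 8 (188 CPM). ctsc and ctsk had 0 reads in the 5 cells. The 5 cd41_GFPlow cells with the neutrophil list and neither the erythroid nor the macrophage list had ctsz in 4 (222 CPM), ctsh in 0 and ctsd in 1 (25.2 CPM). In mpx_EGFP, where all cells carried the neutrophil list, ctsd was present in 19 of 47 cells and ctsz in 4. These are small numbers of cells from 1 plate per line, and no test was made.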
